A study of Mus musculus with 16 samples.

Results

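The 9 genes of retinoic acid handling described here were followed in testis RNA of mice with a conditional deletion of Ythdc2. They were chosen by name, as the genes whose Ensembl identifiers carry the symbols Stra6, Crabp1, Crabp2, Rdh10, Aldh1a1, Aldh1a2, Cyp26b1, Rarg and Rarb, and all 9 were found among the 55414 gene identifiers of each deposited table. All 9 also passed the filter on low values in every comparison. Whole testes were sampled at postnatal day 14 (P14) or 16 (P16). The groups were control (2 libraries at each stage), Cre control (2 at P14 and 4 at P16) and Ythdc2 conditional knockout, written cKO (3 at each stage). Per the labels, tamoxifen at 10 mg per ml was given on P12 and again on P13 to all groups. This drug activates an inducible form of the Cre recombinase. The column names of the control libraries begin with WT, while their titles say control. No genotype of the Cre controls is given, and the labels name no Cre driver and no floxed exon. They also do not say whether the libraries came from separate animals. P-values therefore measure the spread between libraries, which may be technical.

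Retinoic acid is made from vitamin A inside the tissue. STRA6 takes up retinol from its blood carrier RBP4, retinol is oxidised to retinal by RDH10, and retinal is oxidised to retinoic acid by the ALDH1A enzymes. CRABP1 and CRABP2 bind retinoic acid in the cytoplasm, CYP26B1 degrades it, and the nuclear receptors RARB and RARG, paired with an RXR partner, switch on genes when it binds. In the testis, retinoic acid drives spermatogonia to differentiate and germ cells to enter meiosis, in part through Stra8 and Meiosin.

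Libraries held 14494867 to 27531529 reads on genes. Ribosomal RNA was removed with 1 kit from the controls and from cKO libraries 1 and 2 of each stage (8 libraries, called first kit here), and with another from the Cre controls and from cKO library 3 at both stages (8 libraries, second kit). Against Cre control, 2 of the 3 cKO libraries thus differed from all controls in kit. Ythdc2 itself was lower in each cKO library than in each control of its table, with cKO means at 19.7% to 34.9% of the control mean. Each table was scaled on its own by the submitters, so levels are compared within a table. Sertoli, spermatogonial and meiotic markers were present in the first-kit libraries at P16, as the testis label has it, while Insl3, a marker of mature Leydig cells, stood at 0 to 0.945 normalized counts in these 4 libraries.

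The start of Rarb is shown first because it carries the textbook response element of this pathway, and the starts of Cyp26b1 and Stra6 because these genes showed the largest rise and the largest fall described below. The sequences are those of RefSeq on build GRCm38.p6, from 250 bases before to 50 bases after the transcription start, 5′ to 3′ on the gene's strand. They are chr14:16575427-16575726 on the minus strand for Rarb, chr6:84593761-84594060 on the minus strand for Cyp26b1, and chr9:58128838-58129137 on the plus strand for the most upstream of the Stra6 starts. Capitals mark a direct repeat of half-sites of the retinoic acid receptor.
Rarb: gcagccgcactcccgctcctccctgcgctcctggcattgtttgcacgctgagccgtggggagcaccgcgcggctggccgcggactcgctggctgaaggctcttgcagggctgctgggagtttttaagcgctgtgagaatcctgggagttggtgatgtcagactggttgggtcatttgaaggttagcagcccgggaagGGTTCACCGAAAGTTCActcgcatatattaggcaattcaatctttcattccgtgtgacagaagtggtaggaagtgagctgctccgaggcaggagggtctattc
Cyp26b1: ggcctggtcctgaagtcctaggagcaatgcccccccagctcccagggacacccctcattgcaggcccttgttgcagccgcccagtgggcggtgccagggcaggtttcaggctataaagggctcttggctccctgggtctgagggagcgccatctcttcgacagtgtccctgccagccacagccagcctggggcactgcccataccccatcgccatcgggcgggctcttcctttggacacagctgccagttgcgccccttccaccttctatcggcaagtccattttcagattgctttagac
Stra6: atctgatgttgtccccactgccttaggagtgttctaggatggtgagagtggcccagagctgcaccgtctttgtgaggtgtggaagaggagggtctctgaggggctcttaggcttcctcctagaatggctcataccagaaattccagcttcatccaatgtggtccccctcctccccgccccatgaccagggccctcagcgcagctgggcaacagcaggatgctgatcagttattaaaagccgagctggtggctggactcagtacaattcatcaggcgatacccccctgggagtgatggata

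The search read the motif AGGTCA, the variant AGTTCA, the variant GGGTCA and also the variant GGTTCA as half-sites on both strands, in the same orientation with 1, 2 or 5 bases between them. Of the 12 promoters found for 7 members, the Rarb promoter alone held such a repeat, at bases -53 to -37 from the start, with a spacer of 5 bases. Among all 32851 promoters in the table, 0.0974% held a repeat with that spacer, 0.268% one with 2 bases and 0.222% one with 1 base. Single half-sites stood in 43.7% of them. Outside the members, Cyp26a1, which encodes another enzyme that degrades retinoic acid, had a repeat of the same spacing on the opposite strand at bases -32 to -16. The 2 elements, written whole in capitals, were these.
Rarb element: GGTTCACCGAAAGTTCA
Cyp26a1 element: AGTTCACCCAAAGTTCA
A match describes letters in this window and not a bound site. Crabp2 and Rdh10 were the members with no promoter sequence used here.

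At P16, cKO testes differed from control testes in 7 of the 9 genes. Stra6, Crabp1, Aldh1a2, Rarg and Rdh10 fell and Cyp26b1 and Aldh1a1 rose, while Rarb and Crabp2, both near the limit of counting, were not called. A gene is termed called where the adjusted p of limma was under 0.05. The background was high in this comparison, since 38.6% of all 17986 genes tested were called, 18.6% higher and 19.9% lower. The median log2 change of the 9 genes was -0.36, beside -0.00050 for all genes tested. That median is the value of Crabp2, which has the largest error of the 9 genes (SE 0.49). The same 7 genes had groups that did not overlap, as did 69.7% of all genes. Under eBayes without trend, limma no longer called Cyp26b1 (adjusted p 0.0522), Rdh10 (adjusted p 0.0810) and Aldh1a1 (adjusted p 0.132). All values that follow are deposited normalized counts, with 2 libraries per group from the first kit, sequenced in 1 run.

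Stra6, the retinol uptake receptor, measured 510.2 and 549 in control, against 292 and 252 in cKO. Both cKO libraries lay below both controls, on 491 and 581 reads against 301 and 243. The log2 change was -0.96 (SE 0.096, limma adjusted p 1.11e-05), or 0.513 times the control level. Crabp1, a cytoplasmic binder of retinoic acid, measured 823 and 867 in control, against 604 and 610.0 in cKO. Its groups were also apart, with a log2 change of -0.48 (SE 0.067, adjusted p 0.000144 by limma). Crabp2, which hands retinoic acid to the nucleus, was scarce, with 8.31 and 24.6 in control and 14.6 and 8.29 in cKO. Those values rest on 8 to 26 reads, the groups overlapped, and the change of -0.36 (SE 0.49, limma adjusted p 0.598) was not detectable at this depth.

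Of the synthesis genes, Rdh10, whose product makes retinal, measured 1031 and 1049 in control, against 902 and 849 in cKO. The log2 change was small, at -0.25 (SE 0.062, limma adjusted p 0.00679), and without control library 2 it was no longer called (limma adjusted p 0.0575). Aldh1a2, a retinal dehydrogenase, measured 3406 and 3545 in control, against 2428 and 2556 in cKO. It fell with the smallest error of the 9 genes, by a log2 change of -0.48 (SE 0.048, adjusted p 1.15e-05 by limma). Aldh1a1, a second retinal dehydrogenase, went the other way, from 17833 and 17064 in the controls to 22452 and 19613 in cKO. The log2 change was 0.27 (SE 0.055, limma adjusted p 0.00225). Reads of Aldh1a1 may be divided with its close paralog Aldh1a7, so the level of each is uncertain.

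Cyp26b1, which clears retinoic acid, measured 2369 and 2754 in control, against 3786 and 4103 in cKO. Both cKO libraries lay above both controls, and the log2 change of 0.63 (SE 0.066, adjusted p 1.62e-05 by limma) corresponds to 1.54 times the control level.

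Rarg, a retinoic acid receptor, measured 519.6 and 537 in control, against 363 and 381 in cKO, with no overlap. The log2 change was -0.50 (SE 0.080, limma adjusted p 0.000349). Rarb, the receptor whose own promoter carries the element printed above, measured 24.9 and 14.2 in control, against 15.5 and 20.7 in cKO. These overlapping values rest on 15 to 24 reads, and the change of -0.07 (SE 0.36, limma adjusted p 0.902) was not detectable at this depth. In GENCODE M21, Rarb overlaps Top2b and Gm48162 on the opposite strand, and the strand setting of the counting is not given in the sources used here.

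In whole testis, a lower share of a cell type and less RNA per cell cannot be told apart. The marker lists moved too. Of 12 Sertoli markers 7 were called higher and 0 lower, and their summed level was 3887 to 4104 CPM (reads scaled to the total of the library) in control and 4671 to 5181 in cKO. Of 9 spermatogonial markers tested 1 was called higher and 7 lower, with sums of 706 to 709 and 565 to 577 CPM. All 8 early meiotic markers were called lower, with sums of 2152 to 2275 and 1697 to 1835 CPM, and all 5 macrophage markers were called higher, with sums of 95.1 to 100.03 and 128 to 131 CPM. Of the Leydig, peritubular myoid and endothelial markers tested, 3 of 6, 1 of 6 and 2 of 4 were called higher and none lower, and 5 of 9 markers of pachytene and later stages were called higher and 1 lower. The part of these shifts in the results for the 9 genes was not tested.

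**Figure D1:**
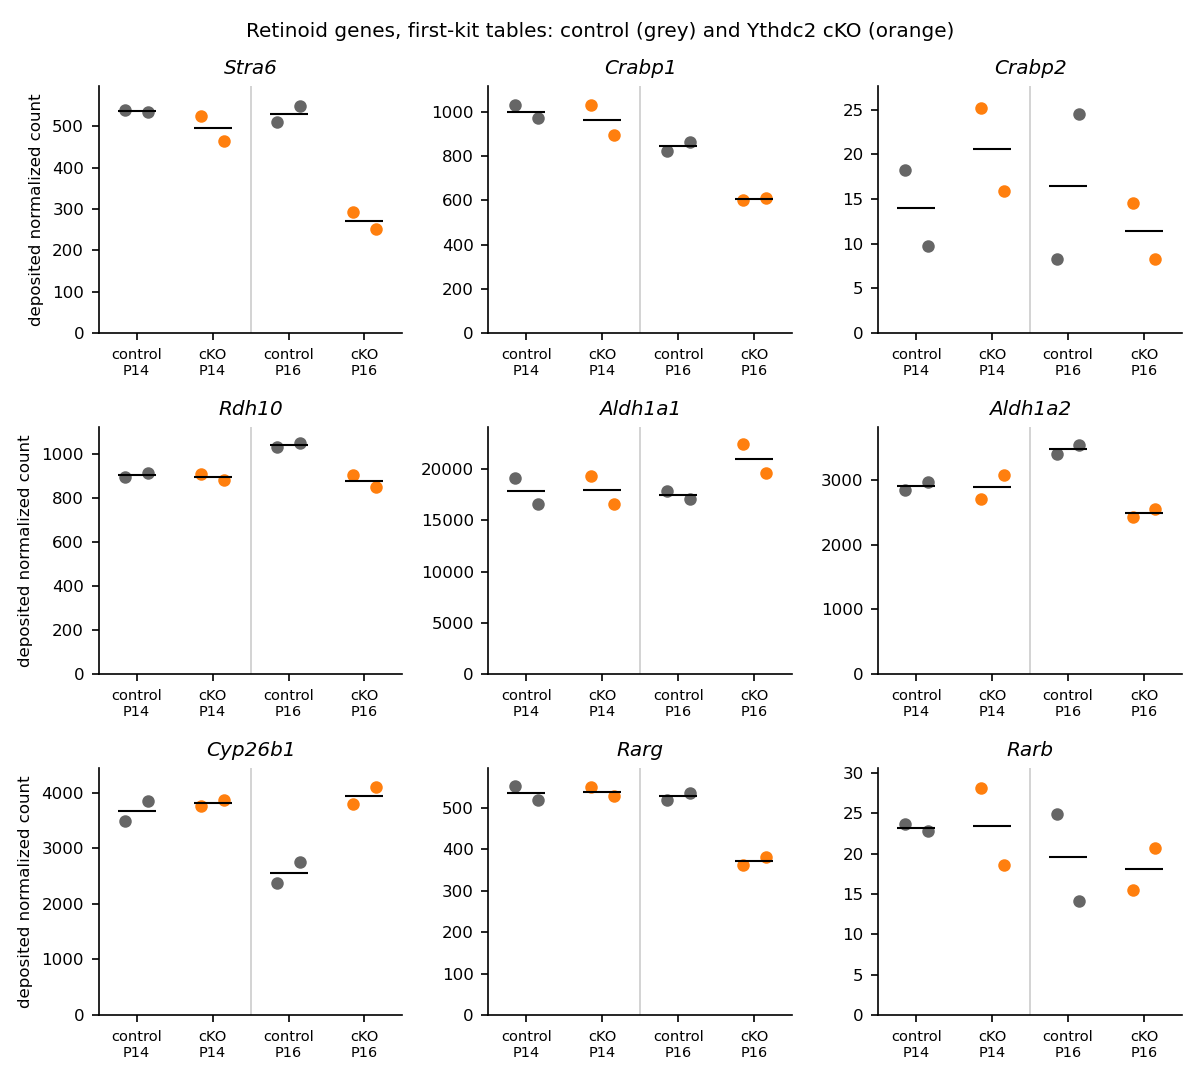
Deposited normalized counts (vertical axis, from 0) of the 9 genes in the first-kit libraries at P14 and P16, with 1 point per library, controls in grey, cKO in orange and the group mean as a bar. At P16 the groups are apart for the 7 called genes, as for Stra6 with 510.2 and 549 against 292 and 252, and at P14 none of the 9 was called.

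At P14 none of the 9 genes was called against control. The background of that comparison was low, as 0.00579% of the 17270 genes tested were called, Ythdc2 alone, while 410 had an unadjusted p under 0.05 with limma and DESeq2 called 6. The unadjusted p of the 9 genes lay between 0.232 and 0.949 with limma. Their median log2 change was -0.01, beside 0.01 for all genes tested. Stra6 measured 540.4 and 534 in control, against 526 and 464 in cKO, so both cKO libraries lay below both controls. Cyp26b1 measured 3494 and 3847 in control, against 3765 and 3875 in cKO, so its groups overlapped. The same was so for Rarg, with 553 and 520.2 in control and 550.5 and 529 in cKO. Aldh1a2 had 2849.6 and 2964 in control and 2700.3 and 3072 in cKO. These small differences had errors that allow a modest change: for Stra6, a log2 change of -0.12 came with an SE of 0.092, and for Cyp26b1, 0.06 came with an SE of 0.062. For the scarce genes the precision was low, with 0.55 (SE 0.42) for Crabp2 and -0.02 (SE 0.31) for Rarb.

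Whether the cKO effect differed between P14 and P16 was tested as an interaction over the 8 first-kit libraries, on log2 CPM of the recovered reads. It differed for 4 of the 9 genes, namely Stra6, Rarg and Aldh1a2 downward and Cyp26b1 upward, beside 7.39% of all 18581 genes, 2.9% upward and 4.49% downward. The difference was -0.83 for Stra6 (SE 0.14, limma adjusted p 0.00989), -0.50 for Rarg (SE 0.11, limma adjusted p 0.0276) and -0.45 for Aldh1a2 (SE 0.092, limma adjusted p 0.0222). For Cyp26b1 it was 0.58 (SE 0.11, limma adjusted p 0.0174). Crabp1 had a difference of -0.40 that was not called (limma adjusted p 0.0588), and Rdh10 (-0.22) and Aldh1a1 (0.27) were not called either. These calls depended on single libraries. Each was lost in some of the 8 fits made with 1 library removed: Stra6 in 1, without control P16 library 2, Cyp26b1 in 3, without cKO P16 library 2, control P14 library 2 or control P16 library 1, Rarg in 4, without cKO P16 library 1, control P14 library 2 or either control P16 library, and Aldh1a2 in 5, without cKO P16 library 1 or any control library. The direction held in each of them. Over the 8 second-kit libraries the same contrast, added after seeing the data, called 0 of the 9 genes and 0 of 18975 genes (710 at an unadjusted p under 0.05 with limma). There it was -0.26 for Stra6 (SE 0.25), -0.06 for Rarg (SE 0.30), -0.18 for Aldh1a2 (SE 0.26) and 0.38 for Cyp26b1 (SE 0.31). Under eBayes without trend limma called none of the 4, with adjusted p from 0.0767 for Stra6 to 0.130 for Aldh1a2.

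Seen along time in the first kit, with 2 libraries per group, the values differed between genes in which genotype moved. The course in cKO was not tested. Cyp26b1 went from 145 and 159 CPM to 91.2 and 106 CPM in control from P14 to P16, and from 156 and 160.4 CPM to 146 and 160.5 CPM in cKO. The log2 difference between the stages was thus -0.63 in control and -0.05 in cKO. Stra6 showed the reverse, with 22.1 and 22.5 CPM at P14 and 19.7 and 21.2 CPM at P16 in control, and 19.3 and 21.8 CPM at P14 and 9.88 and 11.3 CPM at P16 in cKO. Its log2 differences were -0.13 in control and -0.96 in cKO. Aldh1a2 had a difference of 0.15 in control and -0.30 in cKO, and Rarg had -0.13 and -0.63. For Crabp1 both were lower at P16, by -0.35 in control and -0.76 in cKO. In the second kit, with 1 cKO library per stage, Cyp26b1 went from 304 to 256 CPM in cKO. Its mean in Cre control went from 335 to 215 CPM. Stra6 there went from 51.9 to 38.6 CPM in cKO and from a mean of 39.9 to 35.1 CPM in Cre control.

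**Figure D2:**
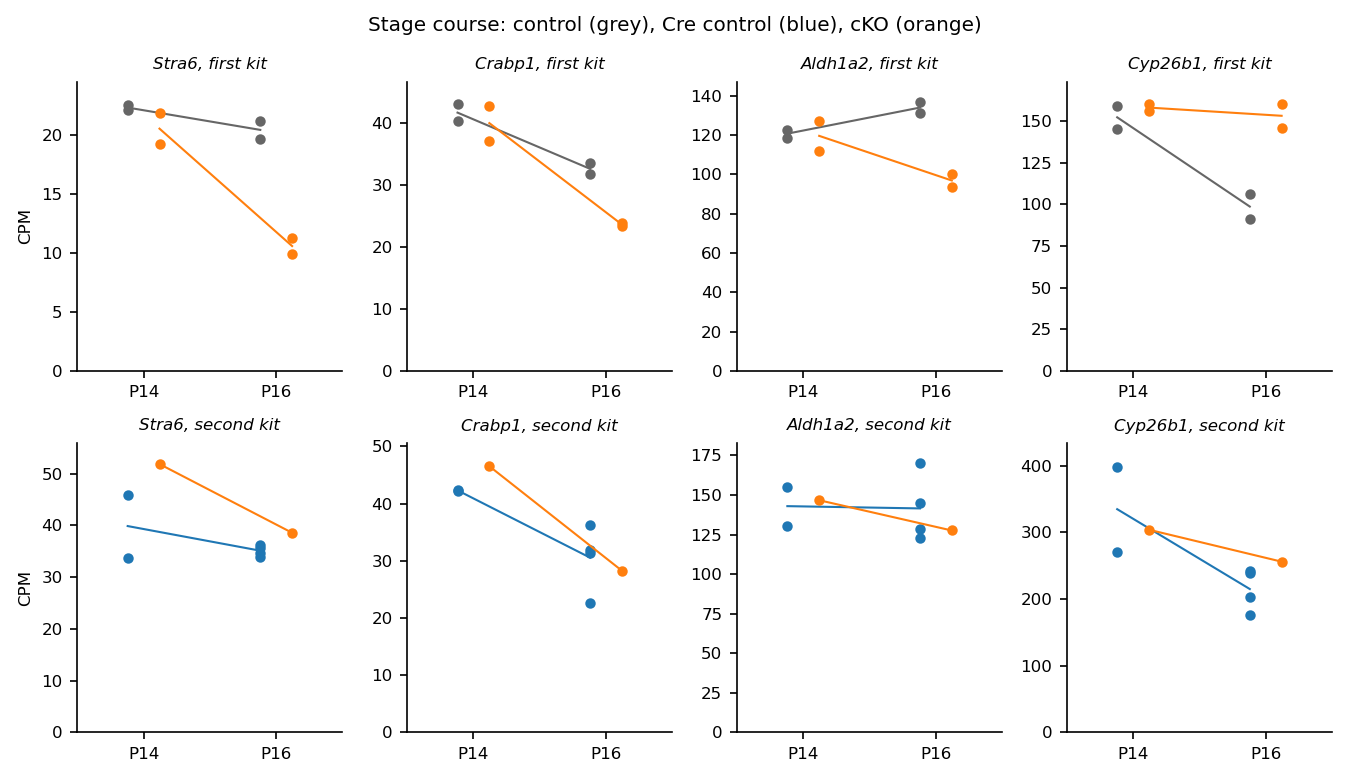
CPM (vertical axis, from 0) of Stra6, Crabp1, Aldh1a2 and Cyp26b1 at P14 and P16, with 1 point per library and lines joining group means, the first kit in the upper row (control grey, cKO orange) and the second kit below (Cre control blue, cKO orange). In the first kit Cyp26b1 lies at 91.2 and 106 CPM in control and at 146 and 160.5 CPM in cKO at P16, and Stra6 at 19.7 and 21.2 CPM in control and at 9.88 and 11.3 CPM in cKO.

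The stage contrast was also tested within each control type. In control, 20% of 18581 genes were called between P14 and P16 (6.67% lower at P16), and among the 9 genes these were Cyp26b1, with a log2 change of -0.63 (SE 0.078, adjusted p 0.000553 by limma), and Crabp1, with -0.35 (SE 0.079, limma adjusted p 0.0118). Crabp1 was not called without control P14 library 1 or control P16 library 1, nor under eBayes without trend. In Cre control, 11.8% of 18975 genes were called (2.82% lower at P16), and Cyp26b1 was the 1 member among them, with -0.62 (SE 0.16, limma adjusted p 0.0330). It was not called without Cre control P14 library 1, P16 library 1 or P16 library 3, nor without a filter or under eBayes without trend. The Cre control libraries came from a pair of sequencing runs. Set against the P14 libraries, the difference of Cyp26b1 was -0.70 for the P16 library of the same run and -0.60 for the 3 of the other run. Crabp1 in Cre control had -0.49 (limma adjusted p 0.0899), with -0.90 within the run and -0.35 across runs.

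Against Cre control at P16, none of the 9 genes was called, and 9.07% of 19200 genes were. That fit recovered 18% of simulated 2-fold changes. The cKO group was split by kit for several of them. Stra6 had 680.4, 665, 707 and 716 in Cre control libraries 1 to 4, and 239, 207 and 741 in cKO libraries 1 to 3. The first-kit cKO libraries thus lay far below all Cre controls and the second-kit cKO library above all of them. The log2 change of -1.05 (SE 0.40, adjusted p 0.0977 by limma) averages over that split. Rarg had 439, 539.9, 467 and 583 in Cre control and 297, 314 and 543 in cKO. Again libraries 1 and 2 lay below all Cre controls and library 3 within their range, with a log2 change of -0.45 (SE 0.22, adjusted p 0.181 by limma). Cyp26b1 had 3979, 4684, 3516 and 4788 in Cre control and 3101, 3383 and 4925 in cKO. Here libraries 1 and 2 lay below and library 3 above, opposite to the higher level of libraries 1 and 2 against first-kit controls.

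Rdh10 was the 1 gene of the 9 whose groups did not overlap, beside 30.1% of all genes. It had 613, 589, 524 and 590.3 in Cre control and 739, 700.1 and 793 in cKO. All 3 cKO libraries were higher, the second-kit one included, with a log2 change of 0.36 (SE 0.094, adjusted p 0.0514 by limma), and DESeq2 called it (adjusted p 0.00320). This direction is opposite to the fall of Rdh10 against first-kit control. Aldh1a2 had 3343, 2408, 2877 and 2543 in Cre control and 1989, 2107 and 2454 in cKO. Its log2 change was -0.35 (SE 0.13, limma adjusted p 0.0976), with library 3 inside the Cre control range. Crabp1 had 444, 617, 631 and 717 in Cre control and 494, 503 and 543 in cKO, so the groups overlapped, with a log2 change of -0.21 (SE 0.16). Aldh1a1 had 13419, 15744, 14326 and 15464 in Cre control and 18390.2, 16169 and 15380.3 in cKO, with a log2 change of 0.17 (SE 0.098). Libraries 1 and 2 were higher than all Cre controls and library 3 was not. The scarce genes overlapped as well, at 5.75 to 19.7 and 12.7 to 18.5 for Rarb and 4.86 to 12.4 and 6.83 to 11.9 for Crabp2.

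Without cKO library 3, Stra6 (-1.63), Rarg (-0.72), Aldh1a2 (-0.44), Cyp26b1 (-0.38) and Rdh10 (0.32) were called, but kit, sequencing run and genotype then cannot be told apart. Within the second kit the deletion rests on that library alone. The limma fit with the kit as a covariate measures this contrast, with the lone library assumed to vary like the others, and called none of the 9 genes. The log2 difference from the Cre control mean was 0.10 for Stra6 (SE 0.13, limma adjusted p 0.716), 0.11 for Rarg (SE 0.17, limma adjusted p 0.768) and 0.23 for Cyp26b1 (SE 0.16, limma adjusted p 0.473). It was 0.46 for Rdh10 (SE 0.12, limma adjusted p 0.135), -0.17 for Aldh1a2 (SE 0.16), -0.13 for Crabp1 (SE 0.22), 0.06 for Aldh1a1, 0.74 for Rarb and 0.03 for Crabp2. The library lay inside the range of the Cre controls for 6 of the 9 genes, the exceptions being Stra6, Cyp26b1 and Rdh10, all above it. These are positions of 1 library, with no count over all genes beside them. Compared with the changes against first-kit control, the sign was the same for Crabp1, Aldh1a2, Aldh1a1 and Cyp26b1 and the opposite for Stra6, Rarg, Rdh10, Rarb and Crabp2. Per the column names, cKO library 3 shares its sequencing run with Cre control library 1 and not with libraries 2 to 4. Against library 1 alone, the log2 difference was 0.29 for Crabp1 and -0.14 for Crabp2, so both change sign. It was -0.45 for Aldh1a2, 0.31 for Cyp26b1, 0.20 for Aldh1a1, 0.12 for Stra6, 0.31 for Rarg, 0.37 for Rdh10 and 1.53 for Rarb.

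The difference between the kits in the cKO effect at P16 was therefore tested, a choice made after the split had been seen. Control type and sequencing run change together with the kit, and the 3 cannot be told apart in this contrast. None of the 9 genes was called by limma, and 0.0452% of 19932 genes were, while 1995 passed an unadjusted p of 0.05. The effect in the first kit was lower than in the second by a log2 difference of -1.08 for Stra6 (SE 0.16, limma adjusted p 0.0635), which edgeR called (adjusted p 0.0493). It was -0.72 for Rdh10 (SE 0.15, limma adjusted p 0.140) and -0.62 for Rarg (SE 0.22, limma adjusted p 0.366). In a limma fit over all 9 libraries of P16 with the kit as a covariate, Cyp26b1 (0.46, limma adjusted p 0.0277) and Aldh1a2 (-0.34, limma adjusted p 0.0479) were called. Stra6 (-0.48, limma adjusted p 0.0888), Crabp1 (-0.31), Rarg (-0.23) and Aldh1a1 (0.18) kept their sign and were not called, and Rdh10 turned to 0.07.

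**Figure D3:**
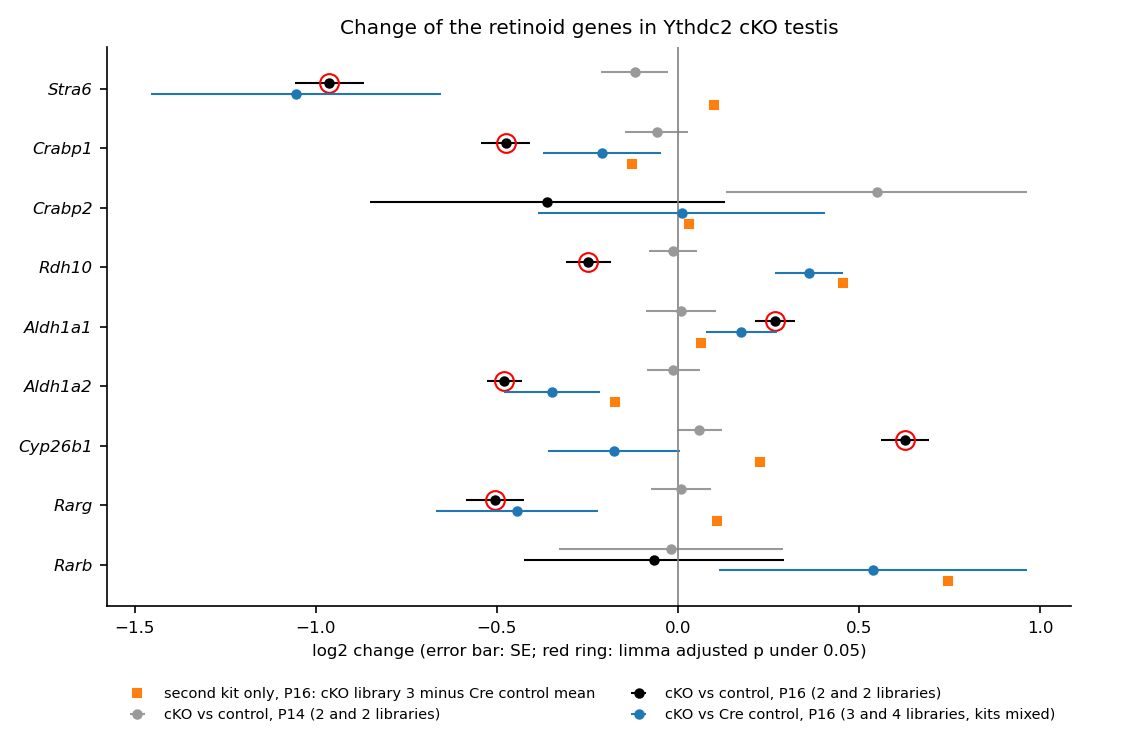
Log2 change of each gene in cKO (horizontal axis) with the SE as a bar, against control at P14 (grey) and P16 (black) and against Cre control at P16 (blue), with the second-kit cKO library minus the Cre control mean as orange squares that have no error. Red rings mark limma calls, all 7 of them in the P16 comparison with control, and Stra6 stands at -0.96 there and at 0.10 within the second kit.

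Against Cre control at P14 none of the 9 genes was called either, as for 0% of 18196 genes (705 at an unadjusted p under 0.05 with limma, 5 called by DESeq2). That limma fit recovered 0% of simulated 2-fold changes, so its lack of calls cannot show that a gene was unchanged. It missed Ythdc2 itself, at a log2 change of -1.57 (limma adjusted p 0.479), which DESeq2 called (adjusted p 0.0148). The split by kit was present at this stage. Stra6 had 619 and 832 in Cre control, 426 and 378 in cKO libraries 1 and 2, and 941 in library 3. Cyp26b1 had 7308 and 4914 in Cre control, 3048 and 3153 in libraries 1 and 2, and 5518 in library 3. The first-kit cKO libraries were thus low for both genes at P14 too, where they did not differ detectably from their own controls. Sequencing run changes along with the kit here, and the part of each in this split was not tested. Without library 3, Stra6 (-0.84), Cyp26b1 (-0.95) and Rdh10 (0.45) were called, with kit, sequencing run and genotype not told apart. Rdh10 had 478 and 595 in Cre control and 736, 719 and 655 in cKO, so all cKO libraries were higher, with a log2 change of 0.40 (SE 0.15, adjusted p 0.479 by limma). Within the second kit, 6 of the 9 genes were higher in cKO library 3 than the Cre control mean and 3 lower, with a median log2 difference of 0.13. Those signs come from 1 library, with no count over all genes beside them.

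**Figure D4:**
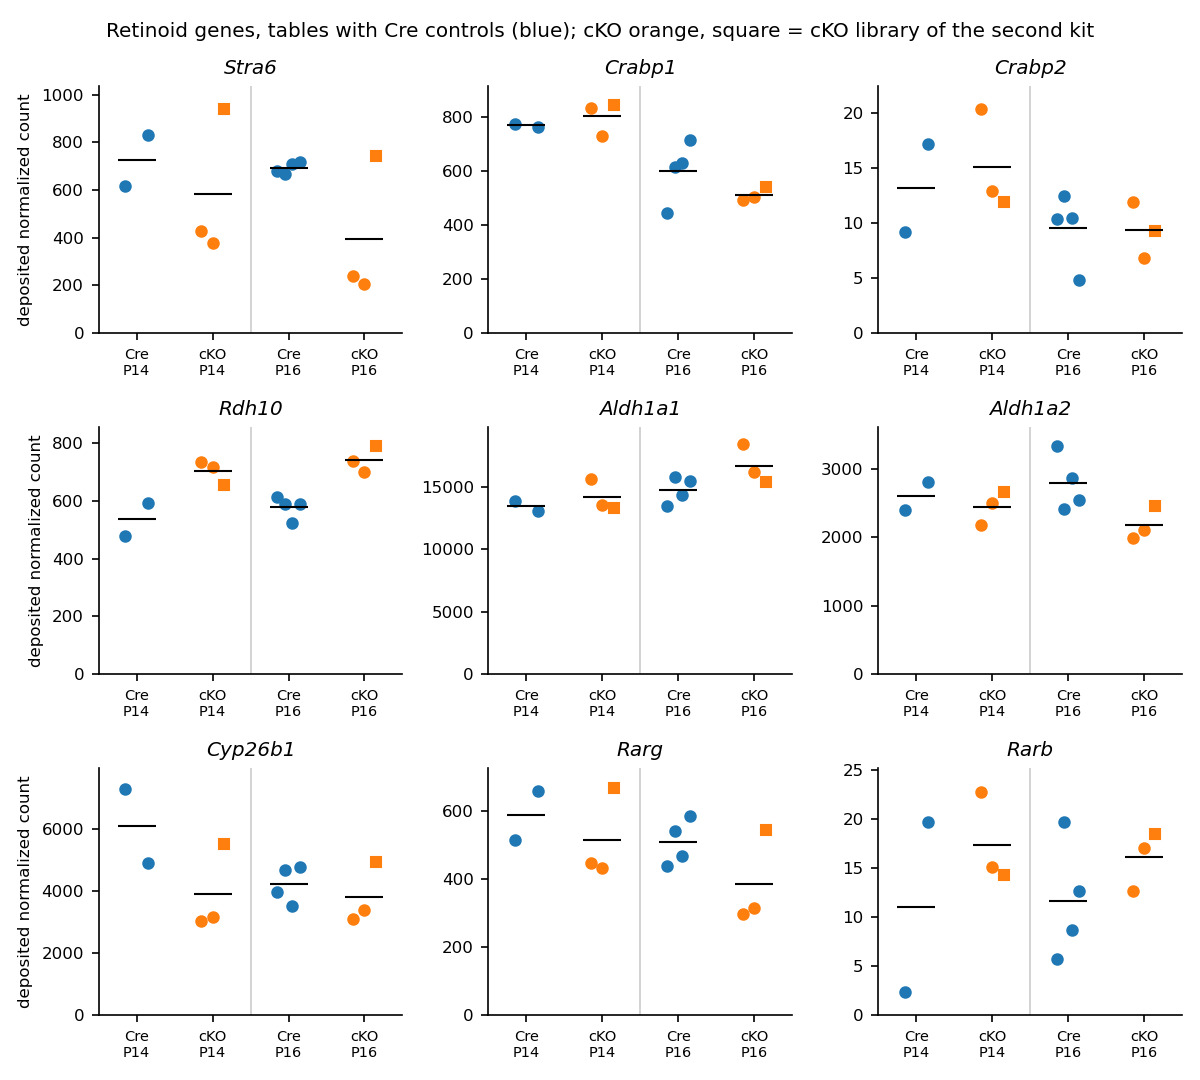
Deposited normalized counts (vertical axis, from 0) of the 9 genes in the tables with Cre controls, with 1 point per library, Cre controls in blue, cKO in orange (square: the second-kit library) and the group mean as a bar. For Stra6 the square lies at 741 at P16, above the Cre controls, and the cKO circles lie at 239 and 207.

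Per length of annotated exon, the 9 genes spanned a wide range in control testis at P16, on the scale of normalized counts per kb. Aldh1a1 was the most abundant with 3534, followed by Aldh1a2 with 1535, Crabp1 with 1053, Cyp26b1 with 479, Rdh10 with 248 and 252 in its 2 libraries, Rarg with 124 and Stra6 with 90.9. Crabp2 had 12.4 and Rarb 3.71. The values of the 2 libraries of neighbours in this order did not overlap. The ranges were 6.29 to 18.6 for Crabp2 and 2.69 to 4.74 for Rarb, close to each other, and no test of the order was made. In Cre control the middle of the order differed. At P16 Cyp26b1 had 793 there and Crabp1 751, with overlapping ranges, and at P14 1142 and 961. Rdh10 had 139, Rarg 119.1 and Stra6 118.7 in Cre control at P16, and the range of Rarg overlapped those of the other two. The ALDH1A enzyme Aldh1a1 had the top level and the receptor Rarb the lowest in both control types at both stages.

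**Figure D5:**
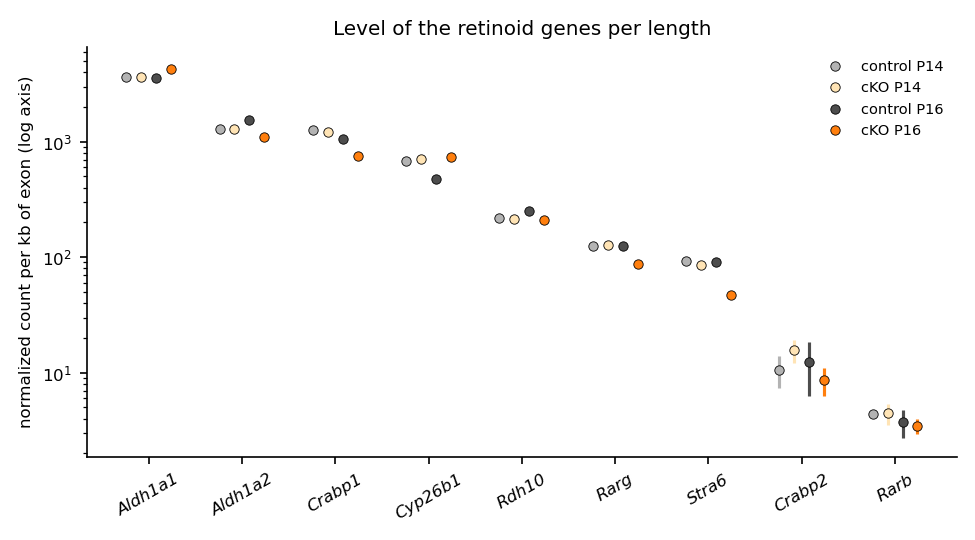
Normalized counts per kb of exon (vertical log axis) of the 9 genes in the first-kit tables, with 1 point per group mean (control and cKO at P14 and P16, 2 libraries each) and the range of the libraries as a line. The order runs from Aldh1a1 at 3534 to Rarb at 3.71 in control at P16.

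The rest of the pathway was read from a list of 31 further retinoid genes, of which 24 were tested at P16 against control. Of these 3 were called higher and 3 lower, a smaller share than over all genes tested, of which 18.6% were called higher and 19.9% lower. The median log2 change of the list was 0.09. Lrat, which esterifies retinol for storage, rose by 1.19 on the log2 scale (SE 0.15, limma adjusted p 6.39e-05), with 169 ± 36.3 (SD, n = 2) in control and 387 ± 68.1 (SD, n = 2) in cKO. Fabp5, a lipid carrier that can bind retinoic acid, rose by 0.55 and Aldh1a7 by 0.35. Rbp4, the retinol carrier that STRA6 recognises, fell by 0.97 on the log2 scale (SE 0.14, limma adjusted p 0.000177), with 282 ± 50.4 (SD, n = 2) in control and 143 ± 16.5 (SD, n = 2) in cKO. Dgat1, which can also esterify retinol, fell by 0.23. The other receptors were not called, with changes of 0.07 for Rara, 0.00047 for Rxra, -0.14 for Rxrb and 0.71 for Rxrg, the last on means of 7.89 and 13.6 normalized counts. None of the 10 tested enzymes that interconvert retinol and retinal was called.

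Known response genes of retinoic acid made up a further list of 10, of which 9 were tested at P16 against control. Of these 6 were called lower and 1 higher, beside 19.9% and 18.6% of all genes tested, with a median log2 change of -0.41. Meiosin, the partner of STRA8, had -1.80 (SE 0.072, limma adjusted p 5.73e-09) and Stra8, the inducer of meiotic entry, -1.10 (SE 0.064, limma adjusted p 1.29e-07). Rec8 (-0.54), Sall4 (-0.54), Esx1 (-0.38) and Kit (-0.21) fell as well. Sall4 and Kit are also members of the spermatogonial marker list above, and Rec8 of the early meiotic one. The counts of these lists are therefore not independent of the response genes. Tgm2, which encodes a transglutaminase, rose by 0.35. Cyp26a1, whose element is printed above, and Dhrs3, which also stands among the further retinoid genes, were tested and not called. At P14 against control, 0 of the 9 response genes tested were called by limma, with a median of -0.08.

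The genes most like Cyp26b1 and Stra6 were sought over the 8 first-kit libraries, among 12812 genes. For Cyp26b1 these were Tmem109 (Pearson r 0.982), Peg3 (0.981) and Slit3 (0.977). For Stra6 they were Ppil1 (0.996), Pgm2l1 (0.995) and Nmt2 (0.995). The libraries share 1 kit and 1 run and fall into 4 groups, so these values describe the group pattern.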

How the data were processed

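RNA of 16 testis libraries was sequenced after rRNA depletion and directional library preparation, per the labels' protocols. The submitters' processing notes name Trim Galore, STAR, HTSeq and DESeq2 and the builds GRCm39 and mm39, without versions. The authors deposited 4 tables of normalized counts, a signal equal to reads divided by a size factor of the library. All 20 columns matched a library by name. Every nonzero value (100% in each column) divided by what a single read is worth gave a whole number within 0.01 of a read, so reads were recovered. The cKO libraries 1 and 2 of a stage stand in both of its tables with identical reads and were counted once. Summary rows that name no gene held 53.4% to 63.0% of the reads and were left out. Names were looked up in GENCODE M21 without version suffixes for 52081 of 55414 identifiers (Meiosin through a synonym), and promoters from RefSeq on GRCm38.p6, of which only the sequence windows were used.

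Within a table, limma 3.58.1 (lmFit, eBayes with trend, R 4.3.3) was run on log2 of the deposited value plus a pseudocount of 1, which understates changes of scarce genes, over genes reaching 10 in 2 or more libraries. P-values were Benjamini-Hochberg adjusted over all genes tested, with a threshold of 0.05. Contrasts across tables (the stage contrasts, the interaction, and the difference between kits, added after seeing the data like the interaction over the second kit) used limma on log2 CPM (TMM, prior count 1). edgeR 4.0.16 and DESeq2 1.42.0 on the recovered reads, other scalings, pseudocounts and filters, a block for the replicate number, eBayes without trend, a kit covariate and leaving out each library were the alternatives. With a single library left in a group, it was assumed to vary like the others. The main fits were tested on simulated data with 200 genes changed 2-fold. At P16, 87% were recovered against control and 18% against Cre control, and at P14 70.5% and 0%. The unchanged genes called numbered 9 and 2 at P16, and 17 and 1 at P14. The interaction recovered 66.5% and called 16 unchanged genes. Changes smaller than 2-fold were not simulated.

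The 9 genes and all lists were chosen with earlier results of these data known. All 9 are named in each comparison. Of the other retinoid genes, those called at P16 against control (at most 8) and the receptors are named, except 1 gene that is not reported here, and the 3 genes most like Cyp26b1 and Stra6 were taken among those with at least 50 reads in all first-kit libraries. The response genes named are those tested at P16 against control, a choice made after their values were seen. Same-numbered libraries were not treated as pairs, since the labels give no pairing and there are 2 such pairs per first-kit comparison.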

Additional observations from a re-analysis of the deposited data

Results flagged for a closer look

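For 4 of the 9 genes the effect of the deletion differed between P14 and P16 by the interaction test in limma over the 8 first-kit libraries. The log2 difference of the effects was -0.83 for Stra6, -0.50 for Rarg, -0.45 for Aldh1a2 and 0.58 for Cyp26b1. In the second kit, with Cre controls and 1 cKO library per stage, none of the 4 was called, and the values were -0.26, -0.06, -0.18 and 0.38. No library stood apart from the others of its group for any of the 9 genes in the 1 group large enough to test, the 4 Cre control libraries at P16 (9 tests).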

How the results depend on the processing

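Of the 7 genes called at P16 against control, none changed direction when a library was left out. Without trend in eBayes 4 of them were called (all genes: 1806), and Cyp26b1 (limma adjusted p 0.0522), Rdh10 and Aldh1a1 were lost. The fit over both control types with the kit as a covariate called 2 (all genes: 2701), with Rarb at 0.30 and Rdh10 at 0.073. At P14 that fit gave Rarb 0.34, Stra6 0.078, Crabp1 0.011, Aldh1a1 -0.0070, Aldh1a2 0.00061, Cyp26b1 -0.019 and Rdh10 0.10, and DESeq2 gave Rarb 0.0012. Genes called at P14 against control numbered 0 without a filter, 0 without trend and 6 with DESeq2.

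Against Cre control at P16, 3277 genes were called with a pseudocount of 10, 917 without a filter, 4188 with DESeq2, 32 without trend and 1 with the kit as a covariate. Of the 9 genes, 1 was called (Rdh10) with a pseudocount of 10, TMM scaling, edgeR or DESeq2. The kit covariate, which rests the contrast on cKO library 3, gave 0.11 for Rarg, 0.10 for Stra6 and 0.23 for Cyp26b1, and Crabp2 was -0.0054 with a pseudocount of 10 and -0.0085 with DESeq2. At P14 DESeq2 called 5 genes, and the kit covariate gave 0.19 for Rarg, 0.39 for Stra6, -0.075 for Crabp2, -0.014 for Aldh1a1 and 0.037 for Aldh1a2.

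The interaction called 727 genes without a filter and 135 without trend, where 0 of the 9 remained called. Over the second kit it called 0 genes and 0 of the 9, with 0.13 for Crabp2 and 0.19 for Rdh10. Between stages in control, eBayes without trend called 2166 genes and 1 of the 9 (Cyp26b1), and Crabp2 was 0.15 with edgeR and 0.0074 without a filter. In Cre control, 49 genes and 0 of the 9 were called without a filter, and 879 and 0 without trend. There Rarb was -0.0015 and Rdh10 -0.0049 with edgeR, and Aldh1a2 was 0.019 without a filter. The difference between kits called 19 genes with edgeR, 1 of them among the 9 (Stra6), 5 with DESeq2 size factors, 0 without a filter and 0 without trend.

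The deviations of same-numbered libraries had correlations of 0.080 at P16 and 0.20 at P14 against control. Against Cre control these were 0.30, -0.070 and 0.23 at P16 and -0.23 and 0.24 at P14, so no common pairing was seen. With the replicate number as a block, 5 genes were called at P14 against control, 0 against Cre control at P16 (Crabp2 -0.25) and 6966 against Cre control at P14, 3 of the 9 among them, where the block takes up cKO library 3. The block gave 2228 genes for the interaction, 4 of the 9 between stages in control and 2 in Cre control (Aldh1a2 0.020), and 0 for the difference between kits.

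Leaving out each library gave 4767 to 7132 genes at P16 against control, with 6 to 7 of the 9 called, and log2 changes of -0.45 to 0.32 for Rarb and -1.09 to 0.37 for Crabp2. At P14 the counts were 0 to 4, with -0.31 to 0.27 for Rarb, -0.036 to 0.053 for Rarg, -0.16 to 0.042 for Crabp1, -0.10 to 0.12 for Aldh1a1, -0.11 to 0.080 for Aldh1a2, -0.011 to 0.13 for Cyp26b1 and -0.034 to 0.0059 for Rdh10. Against Cre control at P16 the counts were 0 to 9441 (0 to 5 of the 9), the upper end without cKO library 3 and 0 without any other library, with -0.25 to 0.20 for Crabp2. At P14 they were 0 to 6340 (0 to 3 of the 9), again highest without cKO library 3, with -0.20 to 2.45 for Rarb, -0.22 to 0.62 for Crabp2, -0.0047 to 0.11 for Aldh1a1 and -0.20 to 0.027 for Aldh1a2. The interaction gave 267 to 3193 genes, 1 to 5 of the 9, and -0.42 to 0.35 for Rarb. Stages in control gave 1655 to 4726 genes, 1 to 3 of the 9, and -0.73 to 0.73 for Crabp2. In Cre control the ranges were 584 to 2774 genes and 0 to 2 of the 9, with -0.94 to 1.72 for Rarb, -0.39 to 0.055 for Stra6, -0.021 to 0.057 for Aldh1a1, -0.15 to 0.10 for Aldh1a2 and -0.17 to 0.17 for Rdh10. The difference between kits gave 0 to 139 genes, 0 to 1 of the 9, and -1.13 to 0.32 for Crabp2. Where a value moved, the cause was not tested, other than the fewer libraries in each such fit. For Rarb and Crabp2, with few reads, depth limits what could be seen.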

Other observations

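The further retinoid and response genes were also read in the second kit, as values set beside the Cre controls, where 1 cKO library per stage carries the deletion. At P16, 16 of 24 other retinoid genes were higher in cKO library 3 than the Cre control mean, with a median log2 difference of 0.10. No count over all genes stands beside that one. Rbp4, called lower against first-kit control, stood at 183 in that library and at 238 to 287 in the Cre controls. Lrat stood at 149.6, inside the Cre control range of 105 to 164, while libraries 1 and 2 lay 1.34 above the Cre control mean on the log2 scale. Fabp5 (0.08) and Aldh1a7 (0.13) lay inside the range as well, and Dgat1 (-0.23) below it.

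In the first kit at P16, 7 of the 9 response genes tested had a lower mean in cKO than in control. In cKO library 3, 9 of the 10 were higher than the Cre control mean, with a median log2 difference of 0.25. Of the 10, 3 lay inside the Cre control range. These are signs from 1 library, with no count over all genes beside them. Meiosin was the 1 lower gene, at 893 against 936 to 1253 in the Cre controls. Stra8 stood at 1521 against 1216 to 1397 and Esx1 at 1484 against 852 to 1085. Tgm2 stood at 1983 against 1321 to 1749. The cKO effect at P16 was lower in the first kit than in the second for all 10 response genes. The median log2 difference was -0.76, beside 0.019 for all 19932 genes tested. Control type and sequencing run change along with the kit here, and the second kit holds 1 cKO library. Early meiotic markers were lower than the Cre control mean in cKO library 3 for 7 of 8 genes, with a median of -0.29 and 3 inside the range. Sertoli markers were higher for 10 of 12, with 5 inside it. Spermatogonial markers were higher for 5 of 9 and lower for 4, and markers of pachytene and later stages higher for 3 of 9 and lower for 6. These 2 lists thus differed from the first kit. Macrophage markers were higher for 5 of 5, endothelial for 4 of 4, Leydig for 4 of 6 and peritubular myoid for 2 of 6. The marker counts, too, are signs from 1 library without a count over all genes.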
